A study of Homo sapiens with 29 samples.

Results

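In 230 of the 4592 genes listed for DRB/TTchem-seq in HEK293, a line of human embryonic kidney cells, the wave peak stood far from the transcription start site (TSS) and hardly moved with time, in control and in THOC5-depleted cells alike. These genes were selected on the measured wave peaks themselves. They had a coverage of at least 100 rpm in both series, a 10 min wave peak over 40 kb from the TSS and short of the last window position in both, and wave peaks at the 4 release times that spanned at most 10 kb within each series. Coverage of 100 rpm in both series was reached by 2298 genes. Another 178 of them met every condition but the 10 kb limit, and 324 had a 10 min wave peak 0 to 40 kb from the TSS in both series. The rule was met in shCtrl taken alone by 305 genes and in shTHOC5 taken alone by 342 genes. At the 10 kb limit, SMC1B (larger span 9.64 kb) and CDKL1 (9.78 kb) were the last genes inside, and RIC3 and TUB (10.1 kb each) the first outside.

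Cells were transduced for 4 days with lentivirus carrying a control hairpin (shCtrl, also written shCr) or a hairpin against THOC5 (shTHOC5). They were held in 100 μM DRB for 3.5 h, DRB was removed, and RNA made during a pulse of 1 mM 4SU was sequenced 10, 20, 30 and 40 min after the removal. Each condition and time had 1 library, 8 in all, so no replicate error can be given and no test was made. Intervals are 95% Wilson intervals over genes, and genes are not replicates of a condition. THOC5 is not among the listed genes, and its depletion was not checked here.

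THOC5 is a subunit of the THO complex, which joins the growing transcript during elongation and takes part in mRNA processing and export. DRB inhibits CDK9, the kinase of P-TEFb, and holds RNA polymerase II near the promoter. After its removal the held polymerases leave their promoters together, and the edge of the newly labelled RNA travels into genes as a wave. A wave peak that advances with time then gives an elongation rate. Any other promoter inside the same window at which RNA polymerase II was held can release a wave of its own. The window of each listed gene began 2 kb before its TSS and ended 120 kb after it, and it passed the end of any gene shorter than that.

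The stretches of sequence printed here show what lay upstream of a few of the standing wave peaks. They are the starts of other genes next to 4 members of high coverage and an internal start of LARP1, each with 250 bases before the annotated start in lower case and the 50 bases from the start in capitals, read 5′ to 3′ on the strand of the gene named. The starts of the other genes are from RefSeq (GRCh38.p14), and that of LARP1 is a GENCODE release 44 transcript start on GRCh38. KHDC4 (chr1:155934364-155934663, minus strand) encodes an RNA-binding protein and starts 2.69 kb before the control 10 min wave peak of ARHGEF2. RPL13 (chr16:89560407-89560706, plus strand), RPS4X (chrX:72277199-72277498, minus strand) and RPL4 (chr15:66504806-66505105, minus strand) encode ribosomal proteins. They start 1.83 kb, 2.56 kb and 0.513 kb before the wave peaks of SPG7, PIN4 and MAP2K1. GENCODE places the outermost start of RPL4 farther away, 20.2 kb before that wave peak. Of the 168 distinct other genes of the members, 5 encode cytosolic ribosomal proteins (2.98%), so the printed starts are not typical of them. The LARP1 start (chr5:154757050-154757349, plus strand) lies 4.58 kb before its wave peak.
KHDC4: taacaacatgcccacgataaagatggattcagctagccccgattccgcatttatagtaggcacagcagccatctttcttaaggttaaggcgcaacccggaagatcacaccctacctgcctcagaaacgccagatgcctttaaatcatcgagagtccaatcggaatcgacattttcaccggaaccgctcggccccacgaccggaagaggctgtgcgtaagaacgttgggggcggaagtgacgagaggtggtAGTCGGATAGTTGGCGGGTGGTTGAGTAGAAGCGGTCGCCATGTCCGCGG
RPL13: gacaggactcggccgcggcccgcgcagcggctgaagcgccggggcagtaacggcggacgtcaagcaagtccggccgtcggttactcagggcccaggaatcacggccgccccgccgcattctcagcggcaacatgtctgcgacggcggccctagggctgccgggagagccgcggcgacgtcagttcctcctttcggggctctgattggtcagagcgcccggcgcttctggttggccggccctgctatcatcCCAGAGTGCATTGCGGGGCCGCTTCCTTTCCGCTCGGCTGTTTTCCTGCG
RPS4X: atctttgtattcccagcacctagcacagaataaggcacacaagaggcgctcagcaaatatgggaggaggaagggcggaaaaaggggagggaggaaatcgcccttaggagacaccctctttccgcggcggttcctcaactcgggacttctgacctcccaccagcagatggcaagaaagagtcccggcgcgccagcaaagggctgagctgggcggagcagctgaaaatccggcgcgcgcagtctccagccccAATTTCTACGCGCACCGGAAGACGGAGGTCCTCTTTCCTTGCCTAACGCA
RPL4: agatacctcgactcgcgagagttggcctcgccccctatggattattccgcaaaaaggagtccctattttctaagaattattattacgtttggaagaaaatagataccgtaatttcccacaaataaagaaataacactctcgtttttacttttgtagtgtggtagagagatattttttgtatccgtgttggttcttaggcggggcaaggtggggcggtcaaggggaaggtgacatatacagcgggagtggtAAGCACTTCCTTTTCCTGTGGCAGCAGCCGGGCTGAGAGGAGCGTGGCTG
LARP1 internal start: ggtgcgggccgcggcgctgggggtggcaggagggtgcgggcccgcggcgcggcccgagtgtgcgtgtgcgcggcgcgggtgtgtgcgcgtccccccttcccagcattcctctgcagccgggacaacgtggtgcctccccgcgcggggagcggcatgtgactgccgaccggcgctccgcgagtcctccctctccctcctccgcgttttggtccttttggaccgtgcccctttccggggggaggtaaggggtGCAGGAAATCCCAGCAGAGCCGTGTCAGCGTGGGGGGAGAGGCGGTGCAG
The G+C share of these stretches was 54.3% in KHDC4, 69.0% in RPL13, 58.7% in RPS4X, 46.3% in RPL4 and 73.3% in LARP1. Stretches not printed here had 49.3% at RPL15, next to UBE2E1, and 36.3% and 39.0% at the internal starts of MORF4L1 and GNAS. The LARP1 stretch held 35 CG dinucleotides, and those of MORF4L1 and GNAS held 5 and 3. Promoters were found in RefSeq for 131 of the 157 protein-coding other genes at the members' wave peaks. Their median G+C share was 64.0% and their median number of CG dinucleotides was 26.0, against 58.7% and 14.0 over all 35116 promoters of the same length. The letters TATAAA, searched on both strands, occurred in 5 of the 131 (3.82%) and in 11.5% of all promoters, and KHDC4 was 1 of the 5. The set of all promoters was not narrowed to protein-coding genes or to genes active in these cells, so the 2 sets are unlike.

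The standing wave peaks lay at a median of 86.3 kb from the TSS in shCtrl at 10 min, with a range from 40.5 to 118 kb. The medians at 20, 30 and 40 min were 87.5, 86.9 and 87.2 kb. In shTHOC5 the 4 medians were 87.7, 87.2, 87.8 and 88.1 kb. The span over the 4 times had a median of 3.12 kb in shCtrl and 3.60 kb in shTHOC5, and over all 8 libraries it had a median of 5.07 kb and a maximum of 12.4 kb. The rule set a limit on the span in each series but not on the distance between the series. That distance at 10 min was at most 8.35 kb in all 230 genes, whereas 135 of the 178 far genes with a wider span (75.8%, 69.1% to 81.5%) had wave peaks within 10 kb of each other. The rule did use the 10 min wave peaks of both series, and the 178 genes are those that failed its span limit. These comparisons are thus a description. Within 1 kb lay 96 of the 230 genes (41.7%, 35.6% to 48.2%) and 50 of the 178 (28.1%, 22.0% to 35.1%). The share over all 2298 genes with the coverage was 47.7%, which counts many genes with both wave peaks at the first window position. A wave peak at the last window position occurred in 11 of the 230 genes in at least 1 library.

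**Figure D1:**
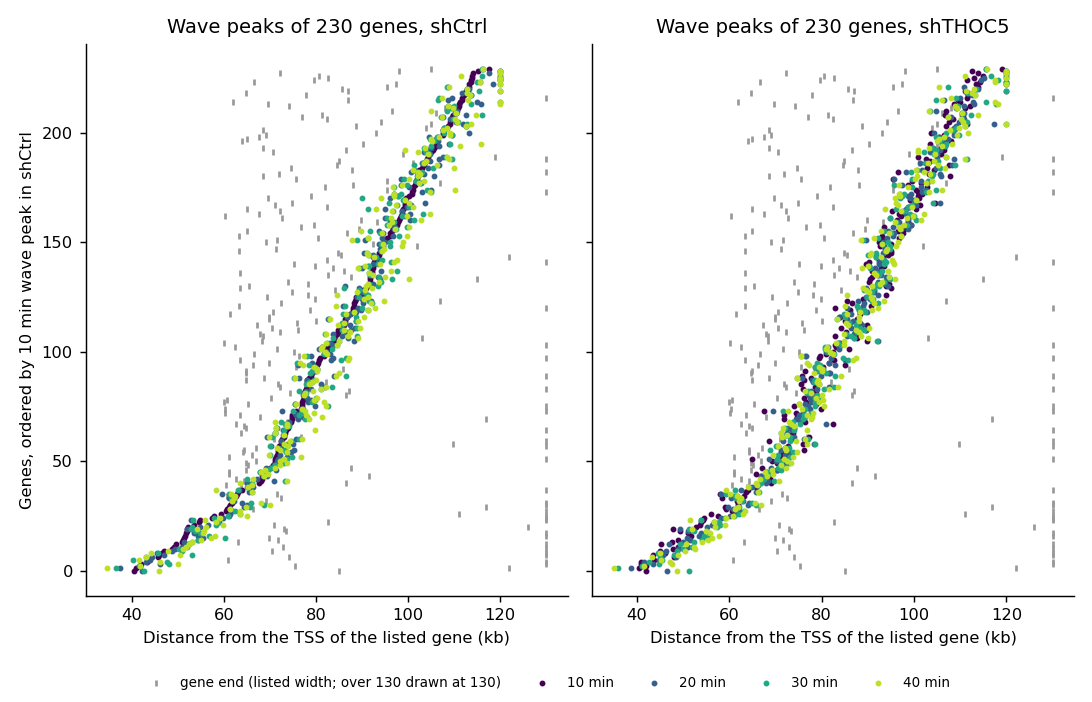
Wave peaks of the 230 genes at the 4 release times in shCtrl (left) and shTHOC5 (right), in kb from the TSS of the listed gene, with 1 row per gene ordered by the 10 min wave peak in shCtrl. Grey ticks mark the gene end; the coloured points of a row lie close together, and most lie to the right of the tick.

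Among the closest matches between the series was CILK1, which encodes a ciliogenesis-associated kinase. Its wave peak lay at 66.1 kb at all 4 times in shCtrl and at 66.1, 66.2, 66.2 and 66.1 kb in shTHOC5, a span of 0.063 and 0.109 kb. This position is inside RN7SK, the gene of the small nuclear RNA that holds P-TEFb in an inactive complex, which is 0.328 kb long and on the other strand. Whether this peak is a released wave was not tested. The wave peak lay 5.52 kb past the end of CILK1. In MBTD1, GALM and SLC2A12 the 10 min wave peaks of the series were 0.032, 0.041 and 0.014 kb apart, at the genes NME2, SRSF7 and ENSG00000288529. The widest distances were those of GNE (shTHOC5 minus shCtrl, 8.35 kb), MAPRE2 (-8.06 kb), CA3 (-6.53 kb) and AMOTL1 (-6.13 kb), a negative value meaning nearer the TSS in shTHOC5. In GNE, the enzyme of sialic acid synthesis, the wave peaks were at 74.1, 74.2, 73.3 and 73.8 kb in shCtrl and at 82.4, 81.0, 75.3 and 73.3 kb in shTHOC5, so the series differed at 10 and 20 min and met at 40 min.

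The genes with a standing wave peak were short. Their median width was 76.3 kb (60 to 255 kb), against 97.2 kb over the genes with the coverage and 85.4 kb in the far genes with a wider span, and 128 of 230 (55.7%, 49.2% to 61.9%) were under 80 kb, against 31.5%. In 219 of the 230 the listed width equals that of GENCODE, and positions were compared with the annotation in these. The control 10 min wave peak lay past the end of the listed gene in 154 of 219 (70.3%, 64.0% to 76.0%), by a median of 14.9 kb and at most 49.5 kb. The share was 60.9% over all 389 such genes that were far in both series, members included, 48.8% in those with a wider span, and 45.5% over all positions 40 to 120 kb into the members' windows.

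Another annotated gene lay at the wave peak in 171 of 219 (78.1%, 72.1% to 83.1%), against 69.4% of all far genes, 58.2% of those with a wider span and 43.9% of the window positions. Of the 154 wave peaks past the gene end, 151 lay in another gene, where 72.3% of the positions past the end do. The other gene was on the same strand in 77 genes, on the other strand in 83 and on both in 11, and no other gene was annotated there in 48. A protein-coding gene, preferred where several genes overlapped, was the other gene in 160 of 171 (93.6%), close to the 89 of 99 (89.9%) in the far genes with a wider span. The median length of the other gene was 21.1 kb, and 148 of 171 were under 60 kb, the lower width limit of the listed genes. There were 168 distinct other genes. A snoRNA or scaRNA gene lay within 2.5 kb of the wave peak in 7 of 219 genes (3.20%), against 0.522% of the window positions.

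The highest coverage was that of ENSG00000205236, at 7624 rpm in shCtrl and 9543 rpm in shTHOC5, whose wave peak lay in POLR2J3. The paper's filter counts coverage over the whole window, so the coverage of a listed gene can hold reads of other genes there. POLR2J3 is a gene for a subunit of RNA polymerase II with near-identical copies nearby, so the reads of this peak may be split between copies. PIN4, a peptidyl-prolyl isomerase (2378 and 2027 rpm), had wave peaks at 93.3, 92.3, 93.0 and 92.6 kb in shCtrl and at 93.2, 91.7, 91.8 and 92.9 kb in shTHOC5, inside its own gene and inside RPS4X on the other strand. SPG7, a mitochondrial protease (1374 and 1236 rpm), had them at 71.8, 72.4, 71.7 and 71.6 kb and at 72.0, 72.8, 72.9 and 72.1 kb, 4.72 kb past its end at 10 min and inside RPL13. In both genes the wave peaks of the 2 series overlapped in range. In MAP2K1, the kinase MEK1, the wave peak stood at 117.5, 116.2, 116.0 and 116.2 kb in shCtrl, 12.7 kb past the gene end at 10 min in RPL4. In UBE2E1, a ubiquitin-conjugating enzyme, it stood between 112.9 and 113.9 kb in all 8 libraries, 27.2 kb past the end in RPL15, which overlaps a further gene on the opposite strand. TUBA1C, an alpha tubulin, had its wave peak between 78.8 and 80.4 kb in all 8 libraries, in a long noncoding RNA gene on the other strand. Tubulin genes have near-identical copies, so its reads are likewise uncertain. HM13, a signal peptide peptidase, had it between 91.4 and 92.2 kb, and CAND2 between 41.0 and 41.9 kb. Their listed widths differ from GENCODE, and they were not placed on the annotation.

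In 3 cases a pair of members shared a wave peak from opposite sides. QRICH1 and ARIH2 lie on opposite strands of chromosome 3, and their control 10 min wave peaks, at 69.2 kb and 106 kb from the respective TSS, were 137 bp apart in IMPDH2, the rate-limiting enzyme of guanine nucleotide synthesis. The pairs FAM149B1 and CFAP70 at MRPS16 (68 bp apart) and ENSG00000260537 and ST3GAL2 at DDX19A (0 bp) were of the same kind. For these libraries the labels name a library kit made for ChIP DNA, which does not mark the strand, and whether the coverage was split by strand is not given in the sources used here. If it was not, reads of genes on both strands cannot be told apart. In 19 members the other gene was itself listed, with wave peaks of its own. These matched those of the member within 2.5 kb in 81 of 152 comparisons and in all 8 libraries in 4 pairs. The matches include other genes with their own wave peak at the first window position. For PMS1 (member ANKAR) and ADAM9 (member PLEKHA2) it lay there in all 8 libraries, and 5 and 4 comparisons matched. NOSTRIN and SPC25, on opposite strands, had wave peaks with a median difference of 0.0240 kb.

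The wave peak lay a few kb after the start of the other gene. For the 75 members with a protein-coding other gene on the same strand, the median distance from that start in shCtrl was 3.54, 5.38, 6.33 and 6.94 kb in the order of the release times. For the 74 with such a gene on the other strand it was 3.78, 4.44, 5.52 and 5.66 kb. At 10 min 69 of the 75 and 63 of the 74 lay within 10 kb of the start, against 39.4% of all window positions inside protein-coding other genes, whose median distance was 13.7 kb. The positions count every protein-coding gene there, whereas the other gene of a member was the one with the nearest upstream start. The 2 shares are thus not measured alike. In the far genes with a wider span, where the choice was as in the members, 67 of 84 (79.8%) lay within 10 kb, with a median of 4.68 kb. With RefSeq starts, available for 122 members, the median was 3.45 kb. A start on the same strand as the listed gene lay within 2.5 kb of the wave peak in 104 of 219 (47.5%, 41.0% to 54.1%), against 40.9% of all far genes and 25.3% of the window positions.

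**Figure D2:**
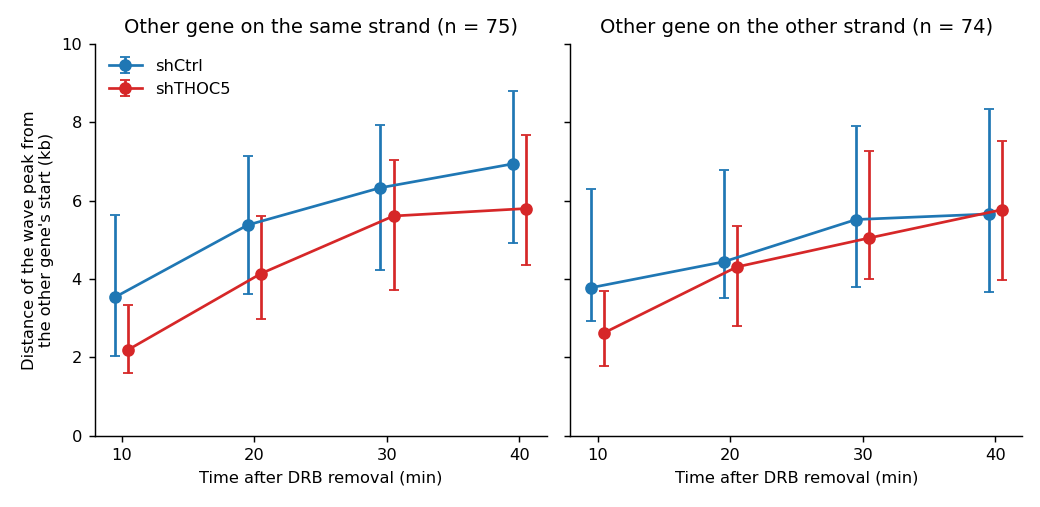
Distance of the wave peak from the start of the protein-coding other gene (kb) against time after DRB removal (min), for other genes on the same strand (left, n = 75) and on the other strand (right, n = 74). Points are medians over genes and bars the quartiles; at 10 min the shTHOC5 medians of 2.20 and 2.63 kb lie below the shCtrl medians of 3.54 and 3.78 kb.

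The small movement of the wave peak followed the strand of the other gene. From 10 to 40 min in shCtrl it moved downstream, in the direction of the listed gene, in 66 of the 77 members with the other gene on the same strand (median 2.92 kb), and in 27 of the 83 with it on the other strand (median -1.13 kb). In shTHOC5 these counts were 65 of 77 (3.33 kb) and 11 of 83 (-3.00 kb). Over all 230 genes the movement was downstream in 143 in shCtrl and in 131 in shTHOC5, against 63.8% and 75.0% of the 2298 genes, and the rule limits its size but not its direction. Taken along the other gene, the wave peak moved away from its start in 122 of 160 genes in shCtrl (76.2%, median 1.69 kb) and in 137 of 160 in shTHOC5 (85.6%, median 3.17 kb). In the far genes with a wider span it did so in 63 and 64 of 94. Where no other gene was annotated, it moved downstream in 39 of 48 in shCtrl (3.04 kb) and in 45 of 48 in shTHOC5 (4.89 kb). With other genes on both strands the directions were mixed, 5 of 11 and 6 of 11.

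**Figure D3:**
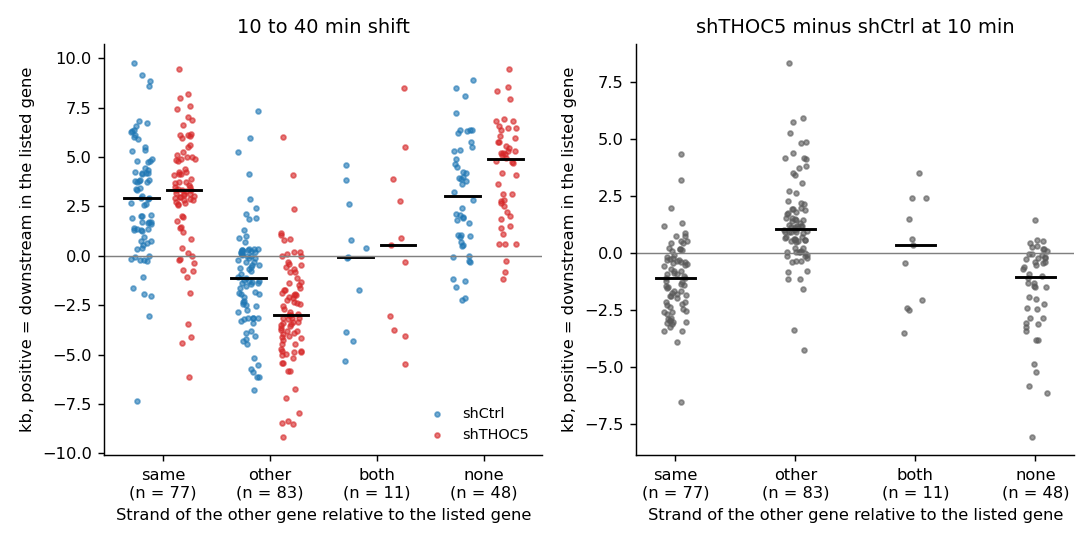
Left, change of the wave peak from 10 to 40 min (kb, positive downstream in the listed gene) in shCtrl (blue) and shTHOC5 (red); right, shTHOC5 minus shCtrl at 10 min (kb). Each point is a gene and black lines are medians, grouped by the strand of the other gene at the wave peak; the medians of the same and the other strand lie on opposite sides of 0 in both panels.

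Depletion of THOC5 went with a wave peak nearer the start of the other gene at 10 min. In the listed gene's direction, the 10 min wave peak was nearer the TSS in shTHOC5 in 122 of the 230 genes and farther in 108. Of the 2298 genes 49.1% were nearer (1128), 298 were farther and 872 had the same position in both series, which no member had. Split by strand, it was nearer in 60 of 77 members with the other gene on the same strand (median -1.10 kb) and farther in 69 of 83 with it on the other strand (median 1.07 kb). Along the other gene, 129 of 160 lagged at 10 min (80.6%, median -1.09 kb), 106 at 20 min (-0.591 kb), 84 at 30 min (-0.0885 kb) and 81 at 40 min (-0.0170 kb). The other gene was the one at the control 10 min wave peak, which therefore lay past its start. A shTHOC5 wave peak could lie before that start and still count as lagging. With the strand taken at the shTHOC5 wave peak, 78.2% of 156 genes lagged at 10 min. At 40 min on the same strand 49 of 77 were still nearer the start of the other gene in shTHOC5 and 24 farther, whereas on the other strand 32 of 83 were nearer and 51 farther. A like share, 76 of 94 (80.9%), was seen at 10 min in the far genes with a wider span. In the 324 genes with a 10 min wave peak within 40 kb of their own TSS, 281 were nearer it in shTHOC5 at 10 min (median -2.01 kb) and 202 at 40 min (-0.704 kb). With 1 library per time, a difference between the cells and one between the 2 libraries of a time cannot be told apart.

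Single genes show both directions. In DENND6A, a regulator of membrane traffic, the wave peak lay in ARF4, a small GTPase of the Golgi on the same strand, 31.0 kb past the gene end. From the ARF4 start it was 3.77, 5.61, 8.41 and 9.88 kb away in shCtrl and 1.97, 3.38, 4.36 and 7.21 kb in shTHOC5, nearer in shTHOC5 at each time. In SNX6, a sorting nexin, the distances from the start of EAPP were 4.38, 4.60, 5.54 and 8.53 kb in shCtrl and 2.00, 2.75, 3.97 and 6.14 kb in shTHOC5, with the same order. In SLC2A12, a glucose transporter, the other gene ENSG00000288529 ran the opposite way. The wave peak moved from 96.6 to 89.8 kb in shCtrl and from 96.6 to 92.9 kb in shTHOC5, towards the TSS of SLC2A12 and away from that of the other gene. In GNE the wave peak lay in CLTA, the clathrin light chain gene on the other strand, 12.1, 12.0, 12.9 and 12.4 kb from its start in shCtrl and 3.74, 5.23, 10.9 and 12.9 kb in shTHOC5. In GALM, an enzyme of galactose metabolism, the wave peak stayed 3.07 to 3.52 kb from the start of SRSF7 in shCtrl and 3.03 to 4.38 kb in shTHOC5. SRSF7 encodes a splicing factor and is 7.90 kb long.

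Wave peaks inside the listed gene and in no other gene made up 45 of 219 (20.5%). The nearest annotated start of the same gene upstream of the peak lay at a median of 3.24 kb, against 19.8 kb over all positions of those windows inside the gene and in no other gene. It lay within 10 kb in 42 of 45 (93.3%, 82.1% to 97.7%), against 34.0% of the positions. LARP1, which binds mRNAs of the translation machinery, had wave peaks at 78.9, 84.0, 86.6 and 84.4 kb in shCtrl and at 75.8, 79.8, 82.8 and 84.3 kb in shTHOC5, 4.58 kb after the internal start at 10 min in shCtrl. MORF4L1, a subunit of histone acetyltransferase complexes, had them at 70.1, 69.1, 70.3 and 71.1 kb and at 67.0, 69.1, 70.5 and 72.2 kb, 2.32 kb after an internal start. GNAS, the gene of the stimulatory G protein alpha subunit and known for alternative promoters, had them at 62.8, 59.5, 61.0 and 61.5 kb and at 57.9, 58.1, 59.3 and 60.1 kb, 5.04 kb after one. In each of these genes the 10 min wave peak of shTHOC5 was the nearer to the TSS. TEX14 was 1 of the 3 exceptions, with the nearest upstream start at its own TSS, 60.5 kb away. An annotated transcript start can be that of a partial transcript model, and the use of these starts in the cells was not measured. In 3 genes, GPR78, METAP1D and NKAIN1, the wave peak lay past the end and in no gene.

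A standing wave peak still had a rate. The deposited rate is the slope over 5 points, the 4 wave peaks counted from the window start and a point at 0 min and position 0, and the refit returned it in all 4592 genes of both series. Its median over the 230 genes was 1.81 kb/min in shCtrl (0.690 to 2.53) and 1.80 kb/min in shTHOC5 (0.695 to 2.53). The slope over the 4 release times alone had a median of 0.0200 kb/min (-0.237 to 0.310) and 0.0357 kb/min (-0.331 to 0.331). It was 0 or negative in 91 genes in shCtrl and 99 in shTHOC5. A rate over 1 kb/min was found in 224 genes of each series with the point at 0 min and in 0 without it. The span limit of the rule bounds the slope over the 4 times. The rate with the point at 0 min is tied to the position of the peak. CILK1, at 66.1 kb throughout in shCtrl, had 1.36 kb/min with that point and 0.00196 kb/min without it. PIN4 had 1.89 kb/min with it and -0.0163 kb/min without it.

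**Figure D4:**
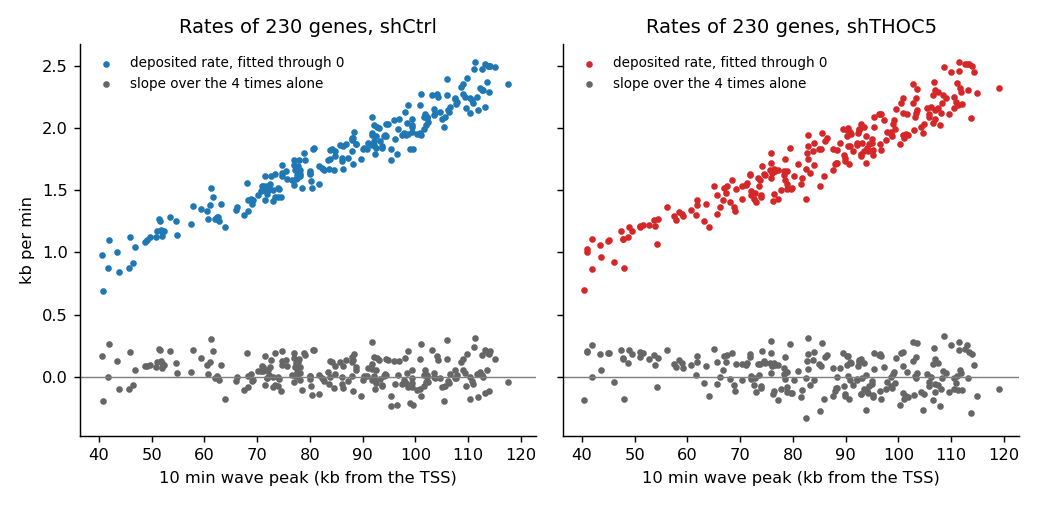
Rate (kb/min) against the 10 min wave peak (kb from the TSS) of the 230 genes in shCtrl (left) and shTHOC5 (right). Coloured points are the deposited rates, fitted with a point at 0 min, from 0.690 to 2.53 in shCtrl and 0.695 to 2.53 in shTHOC5; grey points are slopes over the 4 release times alone, all between -0.331 and 0.331.

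The authors' mark, which flags genes kept by their filter, was held by 36 of the 230 genes in shCtrl (15.7%) and by 69 in shTHOC5 (30.0%). Over the 2298 genes the shares were 9.83% and 19.0%. Per the paper, the filter drops genes of low coverage and genes with a 10 min wave peak under 2 kb. The rule lets in no such gene, so these shares are a description. Order alone did not bring the mark, as 20.4% of the members in shCtrl had wave peaks in downstream order at every step. Any further condition of the filter is not given in the sources used here. Of the genes with the mark and a rate over 1.2 kb/min, the members were 34 of 82 in shCtrl (41.5%, 31.4% to 52.3%) and 58 of 140 in shTHOC5 (41.4%, 33.6% to 49.7%). This rate follows from the position of the peak, which the rule used, so the share is a description. Without the limit on the rate the members were 36 of 226 marked genes in shCtrl (15.9%) and 69 of 461 in shTHOC5 (15.0%). The mark was held in either series by 44 of 77 members with the other gene on the same strand and by 5 of 83 with it on the other strand. Without another gene it was held by 25 of 48. CILK1, with its span of 0.063 kb, held it in shCtrl. Marked in both series were 25 members, out of 110 such genes. ARHGEF2, a guanine nucleotide exchange factor, is the one of highest coverage (2300 and 2196 rpm). Its wave peak lay 15.1 kb past its end in KHDC4, at 2.69, 2.87, 4.17 and 6.87 kb from the KHDC4 start in shCtrl and at 1.80, 3.30, 5.00 and 5.48 kb in shTHOC5. Its rates were 1.65 and 1.63 kb/min, and its slopes over the 4 times 0.138 and 0.127 kb/min. Of the other members marked in both series, KLHDC1 had its wave peak in KLHDC2, 1.98 kb from its start at 10 min in shCtrl, and B4GALT1, a galactosyltransferase, in SMU1, 5.31 kb from its start. HBS1L, a ribosome rescue factor, had it inside the gene, 3.40 kb after an internal start. In the 25 members the rate in shTHOC5 was a median of 0.986 times that in shCtrl and was lower in 19, and in the other 85 genes it was 0.924 times and lower in 60. The rates of members follow from wave peak positions that the rule used. The 2 ratios are thus a description and give no comparison of the effect of THOC5 depletion.

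Among the genes for which the study lists a THOC5 class, 2 of 55 dependent genes (MAP3K2 and TARS3) and 6 of 52 independent genes (CAPZA2, EFHD1, NUP160, OVOL2, PPP2R5C and WIPF2) had a standing wave peak, 3.64% and 11.5%. All of these class genes hold the control mark, and the share over all genes with that mark was 15.9%. In MAP3K2, a kinase of the MAPK cascade, it lay 8.16 kb past the gene end in ERCC3, a helicase of TFIIH, and its control rate was 2.13 kb/min with the point at 0 min and 0.154 without it. EFHD1 had its wave peak in GIGYF2, NUP160 in FNBP4, OVOL2 in SNX5, WIPF2 in CDC6 and TARS3 in TM2D3, each on the same strand. CAPZA2 and PPP2R5C had theirs inside the gene, 7.75 and 3.44 kb after an internal start. Without these 8 genes the mean control rate was 0.567 ± 0.486 kb/min (SD over 53 genes) in the dependent and 1.26 ± 0.916 kb/min (SD over 46 genes) in the independent class. The ratio of the means was 2.22 without them and 2.13 with them, and the ratio of the medians was 4.22 and 4.36.

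Coverage, which can hold reads of other genes in the window, was higher than over the genes with the coverage. The median coverage was 341 rpm in shCtrl and 330.1 rpm in shTHOC5, against 261 and 276 rpm over the genes with the coverage, and the ratio of shTHOC5 to shCtrl had a median of 0.955, against 1.01. In the far genes with a wider span the median coverage was 301 and 300.2 rpm and the median ratio 0.958. In the 1 kb around the wave peak the median G+C share was 44.9%, and the median of the windows was 44.4%, and the peak was above its window in 103 of 219 genes in shCtrl (47.0%) and 93 in shTHOC5 (42.5%). With 5 kb around the peak the direction turned, to 121 (55.3%) and 135 (61.6%). Solute carriers, by their SLC symbols, numbered 5 of the 230 genes (2.17%, against 1.22% of the genes with the coverage). Every other family counted was a lower share of the members. Ubiquitin ligases and deubiquitinases were 2.61% against 4.26%, protein kinases 2.61% against 3.61%, and small GTPases with their regulators 2.17% against 2.65%. Chromatin modifiers and remodellers were 1.74% against 2.65%, and zinc finger transcription factors 1.74% against 1.96%.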

How the data were processed

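The study made DRB/TTchem-seq libraries of labelled RNA from control and THOC5-depleted HEK293 cells. Its Nanopore and ChIP-seq samples were not used here. Per the submitters' processing notes, the series used CASAVA 1.8.2, Bowtie2 2.3.4.1, minimap2, deepTools 2.0 and GRCh38. Which aligner served these libraries is not given in the sources used here. The authors normalized coverage to depth, called wave peaks with a published single-gene module and deposited 1 table per series. The coverage column is named for RPKM but sums to 1000000 over the listed genes, so it was read as RPM as deposited by the authors. Reads per library are unknown, and no precision can be taken from depth.

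Window positions, less the 2 kb in front of the TSS, were placed on GENCODE release 44 (GRCh38) where the listed and annotated widths were equal. Window positions were sampled every 100 bp from 40 to 120 kb. The other gene was the overlapping gene, protein-coding where there was one, with the nearest upstream start on its own strand. The strand groups and this choice were made after the wave peaks had been placed. Members and gene lists were chosen with earlier results of these data known, the classes are the study's own, and named genes followed a rule of mark, coverage, position group and distance. Other genes are named where a result turned on them. The scripts were tested on simulated data and used Python 3.11.15, numpy 2.4.6, pandas 2.3.3, scipy 1.17.1, pysam 0.24.0 and matplotlib 3.10.9. Alternatives changed the limits of the rule, the release time, the series, the annotation and the average.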

Additional observations from a re-analysis of the deposited data

How the results depend on the processing

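No paired analysis was possible because the groups compared, a condition at a release time, hold 1 library each and so share only 1 replicate number; differences at matched release times are given without a test, since the times are not replicates. Of 66 alternatives, 43 stayed inside the interval of the value or within 1.5 times it, 22 moved outside and 1 reversed; 23 were chosen after the data had been seen. The cause of these moves was not tested, except where the alternative itself is a wider or narrower limit. With a span limit of 5 kb there were 140 genes, 52.9% had 10 min wave peaks within 1 kb and 78.6% lay past the gene end, which fell to 60.3% for over 5 kb past it. Wave peaks of the series within 1 kb rose to 58.3% at 40 min and 54.8% for the median of 4 times, and 76.5% lay within 2.5 kb. Another gene lay within 2.5 kb in 83.1%. A start on the same strand lay within 1 kb in 18.7%, within 5 kb in 72.6%, within 2.5 kb of the shTHOC5 peak in 61.6%, and on either strand in 64.4%. The share of wave peaks above the G+C of their window reversed from 47.0% to 55.3% with 5 kb around the peak. The rate with the point at 0 min ranged from 1.80 to 2.69 kb/min, leaving out 1 release time in turn, with 2.30 without 10 min and 2.69 without 40 min, while the slope over the times alone stayed between 0.0159 and 0.0231. The class ratio was 4.22 with medians. The coverage ratio was 1.05 as a mean, above 1, where the median of 0.955 lay below it, and this was counted among the moves. Movement along the other gene from 20 to 40 min was 66.2% in shCtrl and 76.9% in shTHOC5, and 90.4% from 10 to 40 min with strands taken at the shTHOC5 peak. The share lagging in shTHOC5 was 66.2% at 20 min, 52.5% at 30 min and 50.6% at 40 min.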
